A study of Mus musculus with 4 samples.

Results

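The Mediator complex was examined through 31 listed subunit genes in splenic B cells that lacked or retained Aff3, and 30 of them were measured among 20637 genes and unnamed transcripts tested in all. A gene was counted as measured when at least 1 array probe carried the accession of a RefSeq transcript of that gene, which gave 48 probes. Med6, a head subunit, found no probe in this way and was not analysed here. All 48 probes were well above background on all 4 arrays, and no gene spot was saturated. CD43-negative splenic B cells of 2 genotypes, Aff3+/- and Aff3-/-, had been cultured for 3 days with IL-4 (10 ng/mL) and LPS (10 ug/mL), stimuli which together drive B cells to divide and to switch to IgG1 and IgE. Each genotype was represented by 2 arrays, numbered 1 and 2, with 1 Cy3-labelled RNA sample on each. The controls carry a disrupted allele too, and no wild-type sample is among the groups. The labels do not describe the allele, the age of the mice or whether RNA was pooled, and they do not say whether the replicates came from separate mice, so the spread behind every p-value may be technical.

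Mediator is a large assembly that carries signals from DNA-bound activators to RNA polymerase II at promoters. Its head and middle modules contact the polymerase, its tail receives most activators, and Med14 joins these modules. A separable kinase module, built from Cdk8 or its paralogue Cdk19, cyclin C, Med12 and Med13 or Med13l, binds the core and keeps the polymerase away while it is bound. Mediator has been linked to class switching, since it occupies the immunoglobulin heavy chain locus of activated B cells, and its Med26 subunit docks the super elongation complex, whose scaffold proteins belong to the same AFF family as Aff3. Modules are named below by the usual assignment, with Med27 to Med30 counted in the tail.

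Facts of the whole series bear on every value below. All 4 arrays lay on 1 slide and were scanned once, and the probes well above background numbered 24947 to 25869 per array, out of 39429. None of the 7 Aff3 transcript accessions matched a probe, so the loss of Aff3 was not checked and each direction rests on the labels. All 7 B cell markers read, among them Cd79b and Ms4a1, were well above background on all 4 arrays. The T cell receptor chains Cd3g and Cd247, the myeloid markers Lyz2 and Mpo and the erythroid marker Alas2 were not well above background on any array, nor were 4 of 5 NK cell markers. Summed over a list's markers, with each array's 75th percentile set to 1, the B cell level was 379 and 357 in Aff3+/- cells and 389.7 and 335 in Aff3-/- cells. Plasma cell markers, 6 of 6 well above background on every array, summed to 46.0 and 51.5 in Aff3+/- cells and to 53.2 and 56.1 in Aff3-/- cells. T cell markers, 6 of 8 above background on every array, summed to 9.67 and 9.20 in Aff3+/- cells and to 9.12 and 8.59 in Aff3-/- cells, and erythroid markers, 3 of 5, to 10.6 and 7.84 against 6.60 and 5.11. The plasma cell sum was therefore higher and the T cell and erythroid sums lower on both Aff3-/- arrays, and their part in the Mediator values was not tested. A few bright probes carry the marker sums. Cd74, Cd79b and Ms4a1 make up most of the B cell sum and went both ways. Blk, Cd22, Cd79a and Pax5 were lower on the Aff3-/- array within each number. Xbp1 and Jchain make up most of the plasma cell sum and were higher on the Aff3-/- array within each number. Sdc1, Irf4, Prdm1 and Tnfrsf17 went both ways. Hbb-bt, a globin gene, makes up nearly all of the erythroid sum. Epor was higher on the Aff3-/- array within each number, and Hba-a1 went both ways. Lck and Cd4 make up most of the T cell sum, while Cd8a was higher on the Aff3-/- array within each number (-7.30 and -6.05 on a log2 scale in number 1, -6.19 and -5.42 in number 2). Of 7 myeloid markers 5 were well above background on all 4 arrays, the brightest being Itgam. The myeloid sum (9.09 and 7.82 in Aff3+/- cells, 8.23 and 7.50 in Aff3-/- cells) overlapped between genotypes. Within each number it was lower on the Aff3-/- array, as were Adgre1, Csf1r, Fcer1g and Itgam, while Cd14 went both ways. The NK cell sum stayed between 0.0136 and 0.0183. A lower signal in these bulk samples cannot be told apart from a smaller share of the cells that make the transcript.

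Promoter sequence was set beside the measurements for the 27 listed genes with an entry in the RefSeq promoter table of GRCm38.p6, which holds 31 windows for them of 250 bases before to 50 after the start, 4 genes having a pair. Med8, Med23, Med24 and Med30 have no entry. The Mediator windows held a median of 20 CpG dinucleotides, against 7 over all 32851 windows, with a range of 3 to 61. Motifs were searched on both strands without regard to overlap. The ETS core CCGGAAG lay in 9 of 31 Mediator windows (29%), from 8 genes including Med10, Med14 and Med18, against 8.86% of all windows. A GC box, GGGCGG, lay in 19 (61.3% against 35.7%) and CCAAT in 12 (38.7% against 37.4%). TATAAA was found in 3 windows (9.68% against 13.6%), the E-box CACGTG in 4 (12.9% against 7.15%) and the cAMP response element TGACGTCA in 1 (3.23% against 1.79%). The palindromic NRF1 motif (0.971% of all windows) and the YY1 motif AAGATGGCG (1.4%) had no match in the Mediator windows. These matches describe the sequence and show no binding.

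The 250 bases before the start are shown, 5′ to 3′, for 4 genes whose values stand out below: Med7, with the largest genotype difference, Med19, another gene with no overlap between genotypes, Med31, the most negative of the genes with no overlap, and Med17, with the largest rise between the replicate numbers. Capitals mark motif matches on either strand, so that a CCAAT box on the other strand reads ATTGG. Their coordinates are chr11:46436697-46436946, plus strand, for Med7, chr2:84678152-84678401, plus strand, for Med19, chr11:72215593-72215842, minus strand, for Med31, and chr9:15279907-15280156, minus strand, for Med17.
Med7: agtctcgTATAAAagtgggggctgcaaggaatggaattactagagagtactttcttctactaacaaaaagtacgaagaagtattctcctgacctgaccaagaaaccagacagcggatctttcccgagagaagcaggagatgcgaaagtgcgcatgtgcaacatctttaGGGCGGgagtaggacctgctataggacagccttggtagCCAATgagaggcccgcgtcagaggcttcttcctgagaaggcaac
Med19: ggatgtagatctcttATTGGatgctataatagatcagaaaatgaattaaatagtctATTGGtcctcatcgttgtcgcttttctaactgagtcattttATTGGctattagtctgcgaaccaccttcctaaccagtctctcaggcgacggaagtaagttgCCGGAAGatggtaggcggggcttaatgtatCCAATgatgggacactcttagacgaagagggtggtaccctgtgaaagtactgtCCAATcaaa
Med31: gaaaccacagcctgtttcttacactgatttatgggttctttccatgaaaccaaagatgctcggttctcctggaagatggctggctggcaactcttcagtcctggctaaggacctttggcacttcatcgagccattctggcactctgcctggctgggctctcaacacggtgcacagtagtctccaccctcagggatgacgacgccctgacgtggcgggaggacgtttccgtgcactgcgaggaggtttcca
Med17: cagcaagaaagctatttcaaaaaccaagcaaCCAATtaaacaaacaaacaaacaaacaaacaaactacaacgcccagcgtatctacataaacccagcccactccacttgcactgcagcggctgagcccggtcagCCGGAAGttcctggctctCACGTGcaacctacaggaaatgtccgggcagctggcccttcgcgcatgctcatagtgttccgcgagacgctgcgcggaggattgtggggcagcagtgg
Med7 carries a TATAAA match far upstream of its start and a GC box and a CCAAT box nearer to it. Med19 has an ETS core and 5 CCAAT boxes, and Med17 an ETS core beside an E-box. The Med31 match to CACGTG runs past the last base shown, and no other motif searched lies in the stretch.

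Comparison of Aff3-/- with Aff3+/- cells asked whether Mediator transcript levels in activated B cells change when Aff3 is lost. Every module showed small differences. The differences of the 30 genes, as log2 of Aff3-/- over Aff3+/-, ran from -0.08 for Med12 and Med31 to +0.15 for Med7, or from 0.945-fold to 1.11-fold. Both ends moved with the processing: with normexp background correction Med13l was highest at +0.20, and when probes of a gene were averaged Med28 was lowest at -0.12. For 27 of 30 the size was under 0.1, and for 28 it was under the gene's own standard error. The median difference was +0.02, against -0.01 over all features tested. With limma and Benjamini-Hochberg adjustment over all features, 0 of the 30 passed the threshold of 0.05, as did 0% of all features. None of the 30 had an unadjusted p below the same threshold in that limma fit, where 2.04% of all features did. Med7 was nearest to the threshold (unadjusted p = 0.28, limma), and the adjusted p was 1.00 for each of the 30 genes (limma).

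These arrays leave room for moderate changes. The limma standard errors of the 30 differences ran from 0.11 to 0.22. The 95% intervals reached down to -0.56, in Med12 and Med13l, and up to +0.59, in Med13l. For Med16, a tail subunit, the brightest probe read 7.30, 7.32, 7.32 and 7.30. The order is Aff3+/- 1, Aff3-/- 1, Aff3+/- 2 and Aff3-/- 2, which is used throughout. The other Med16 probe read 0.93, 0.88, 0.85 and 0.92. These and later levels are log2 signals relative to the 75th percentile of an array's gene spots, and a level is compared across arrays for 1 probe, never between probes. Even for the brightest Med16 probe the interval was -0.29 to +0.29, because limma draws each gene's variance toward a common value.

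**Figure D1:**
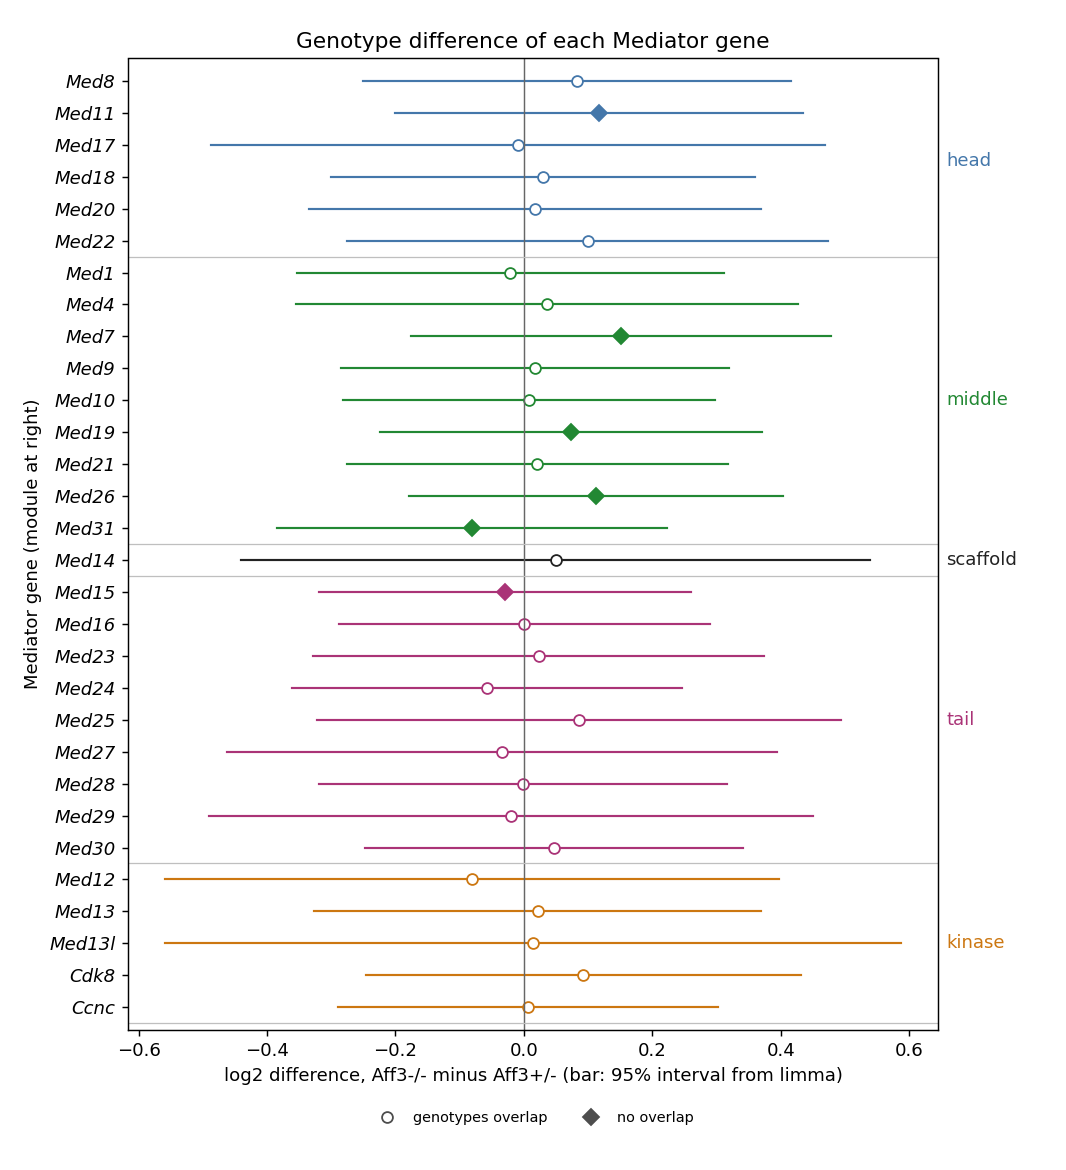
Log2 difference in signal between Aff3-/- and Aff3+/- cells (x axis) for each of the 30 measured Mediator genes (y axis, grouped by module), with the 95% interval from limma as a bar. Filled diamonds mark the 6 genes whose genotypes did not overlap, and every interval includes 0.

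Both Aff3-/- arrays lay above both Aff3+/- arrays for 4 of 30 genes (13.3%), Med7, Med11, Med19 and Med26, where 8.45% of all features did so. Both lay below for 2 of 30 (6.67%), Med15 and Med31, against 11.1% of all features. Differences above 0 were found for 21 of 30 genes (70%), against 45.7% of all features. That count rested on single arrays. It was 12 without Aff3+/- replicate 1, with a median of -0.01, and 13 without Aff3-/- replicate 2, with a median of -0.02. It was 24 without either of the other arrays, with medians of +0.05 and +0.07. Over all features the medians of these fits ran from -0.02 to -0.005, and the share above 0 was not worked out. In the authors' deposited table of values, which covers 19 of the 30 genes and none of the 4 with Aff3-/- brighter, 9 were above 0 and the median was -0.0008. Every measured gene it lacks had a difference above 0 on the scanner values. Of the 19 genes 18 kept their sign, and Med8, read there by its other probe, turned. The median over all features was -0.06 there.

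Middle module genes, which pass contacts between the head and the rest of the complex, held 4 of the 6 genes without overlap. Among the 9 middle genes 3 were brighter and 1 dimmer on both Aff3-/- arrays, against 8.45% and 11.1% of all features. Med7, which with Med21 forms the hinge of the middle module, read 1.98, 2.13, 1.85 and 2.01, a difference of +0.15 ± 0.12 (SE). The difference of Med7 was +0.14 within number 1 and +0.16 within number 2, and its second probe gave +0.10 with the genotypes overlapping (1.47, 1.60, 1.34 and 1.41). Without 1 array the Med7 difference ran from +0.086 to +0.22. Both Aff3-/- values of Med7 were higher, but the nearest values of the genotypes (1.98 and 2.01) lay closer together than the replicates of either genotype. Med26, the docking subunit for elongation factors, read 1.12, 1.21, 1.12 and 1.26, with the Aff3+/- arrays close together and both Aff3-/- arrays above them (+0.11 ± 0.11). Med19, which like Med26 is bound by the repressor REST, read -0.02, 0.05, -0.09 and -0.01 (+0.07 ± 0.11). Med31, a small conserved subunit, read 0.87, 0.72, 0.77 and 0.76, a difference of -0.08 ± 0.11 in which Aff3+/- replicate 1 stands above the other arrays. With normexp background correction Med31 and Med15 overlapped and 0 genes remained with both Aff3-/- arrays dimmer.

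The other middle genes differed by -0.02 to +0.04. Med1, the large subunit that binds nuclear receptors, read 2.04, 1.97, 2.11 and 2.14, so that each Aff3-/- array fell outside the Aff3+/- pair on opposite sides. Med10 spanned 1.76 to 1.78 over all 4 arrays, Med9 1.77 to 1.86 and Med21 0.53 to 0.61. Med4 was lower on both number 1 arrays (1.42 and 1.42) than on both number 2 arrays (1.59 and 1.67), whichever the genotype. Of the 9 middle genes 7 had a difference above 0, where 45.7% of all features did, and their median was +0.02.

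In the head, the part that meets the polymerase and the general initiation factors, the median difference was +0.06. Differences above 0 were found for 5 of 6 measured genes, against 45.7% of all features. Med11, a small head subunit that pairs with Med22, read 2.00, 2.04, 2.00 and 2.19, and its difference of +0.12 ± 0.12 came mainly from Aff3-/- replicate 2. Med22 read -0.09, 0.02, 0.12 and 0.21 (+0.10 ± 0.14), so that the genotypes overlapped although the Aff3-/- array was higher within each number. Med8, which links the Med18 and Med20 pair to the rest of the head, was at +0.08 ± 0.13, and its other probe at -0.0001. Med18 (+0.03 ± 0.12) and Med20 (+0.02 ± 0.13) overlapped. Med17, the central head subunit, read -0.01, -0.03, 0.29 and 0.29, nearly equal between genotypes within each number and 0.31 higher on the number 2 arrays. Med14, the scaffold that joins the modules, read -0.11, -0.22, 0.00 and 0.22, with both extreme values on Aff3-/- arrays, and its difference was +0.05 ± 0.19.

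**Figure D2:**
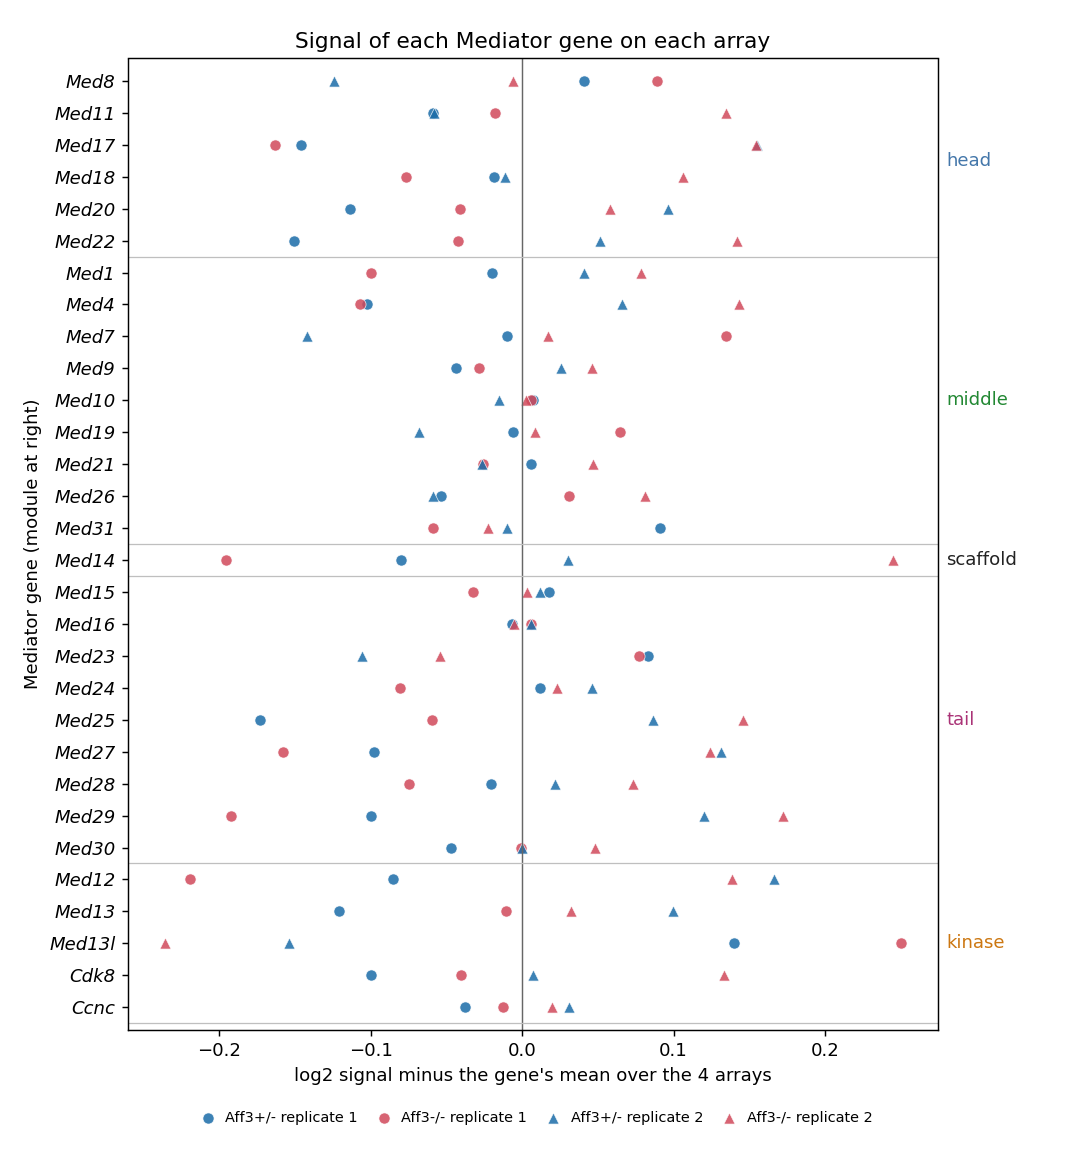
Log2 signal of each Mediator gene on each array minus the gene's mean over the 4 arrays (x axis), by gene and module (y axis); colour gives the genotype and shape the replicate number. For Med12, Med17, Med27 and Med29 the triangles of number 2 lie to the right of the circles of number 1, whereas for Med13l they lie to the left.

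Tail genes, which receive activators, were divided between differences above 0 (4 of 9) and below 0 (5 of 9), with a median of -0.001. Med15, a target of lipid and Smad pathway factors, read 1.85, 1.80, 1.85 and 1.84 (-0.03 ± 0.11), and the nearest values of the genotypes differed in the second decimal only. Med24, a tail subunit with Med16 and Med23, read 1.95, 1.86, 1.99 and 1.96 (-0.06 ± 0.12), lower in Aff3-/- cells within each number but overlapping across them. Med25, a subunit that binds acidic activators, read -1.67, -1.56, -1.41 and -1.36 (+0.09 ± 0.15). Its Aff3-/- array was higher within each number, by 0.11 and by 0.06. Med23, which serves the Ets factor Elk1, was at +0.02 ± 0.13, and Med30 at +0.05 ± 0.11. Med27 (-0.03 ± 0.16) and Med29 (-0.02 ± 0.18) differed more between numbers than between genotypes: Med29 read 1.34, 1.25, 1.56 and 1.61.

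On their brightest probes the 5 kinase module genes gave no difference without overlap, and their median was +0.01. Cdk8, the kinase, read 2.63, 2.69, 2.74 and 2.86 (+0.09 ± 0.13), higher on the Aff3-/- array within each number. Ccnc, its cyclin, read -1.44, -1.41, -1.37 and -1.38 (+0.007 ± 0.11). Med12, which activates Cdk8 through cyclin C, read 2.02, 1.88, 2.27 and 2.24, a difference of -0.08 ± 0.18 with a 95% interval of -0.56 to +0.40. Both Aff3-/- values of Med12 were lower than the Aff3+/- value of the same number, by -0.13 and -0.03. Med13 (+0.02 ± 0.13) and Med13l (+0.01 ± 0.22), alternative subunits that tether the kinase module to the core, differed in opposite directions within the numbers. Med13l read -4.79, -4.67, -5.08 and -5.16 and showed the widest interval of the set.

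Replicate number separated the Mediator genes more than genotype did. The median size of the number 2 minus number 1 difference was 0.12, against 0.03 for the genotype difference, and over all features these medians were 0.16 and 0.07. In 23 of 30 genes the number difference was the larger of the pair, a share that was not worked out over all features. Both number 2 arrays lay above both number 1 arrays for 18 of 30 genes (60%), where 30.8% of all features did so, and below for 4 of 30 (13.3%), where 33.5% did. The 18 were spread over all modules, with 4 of 6 in the head, 3 of 9 in the middle, Med14, 6 of 9 in the tail and 4 of 5 in the kinase module. Differences were largest for Med17 (+0.31), Med12 (+0.30), Med29 (+0.29) and Med14 (+0.28), and on the other side for Med13l (-0.39), Med23 (-0.16) and Med8 (-0.13). The labels do not say what the number marks, and no test was made of it.

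**Figure D3:**
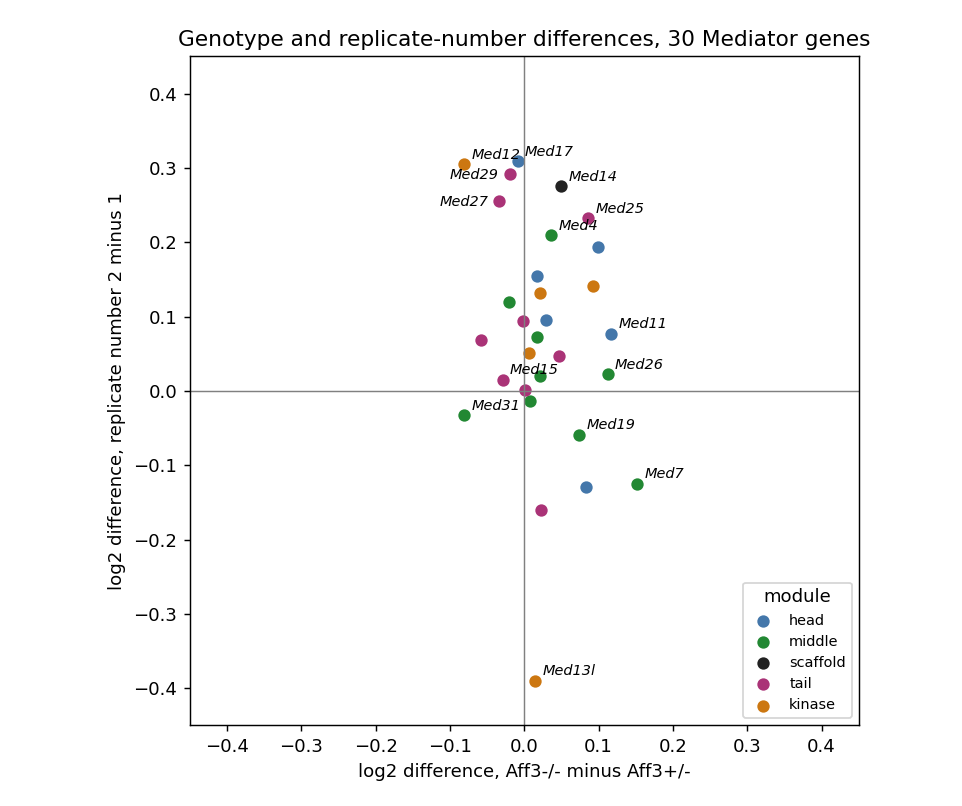
Genotype difference (x axis, log2, Aff3-/- minus Aff3+/-) against replicate-number difference (y axis, log2, number 2 minus number 1) for the 30 Mediator genes, coloured by module, on equal scales from the same 4 arrays. Points spread from -0.39 to +0.31 vertically and from -0.08 to +0.15 horizontally.

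Within number 1 the Aff3-/- array was higher for 15 of 30 genes (median +0.006), and within number 2 for 19 (median +0.05). The same sign in both numbers was seen for 16 of 30 genes (53.3%), against 52.3% of all features. Of these 10 were higher and 6 lower in Aff3-/- cells. Across the arrays, Aff3-/- replicate 2 gave the highest value for 14 of 30 genes and the lowest for 1, whereas Aff3-/- replicate 1 gave the highest for 4 and the lowest for 12. For 24 of 30 genes the mean gap between replicates of a genotype exceeded the genotype difference. Neither this count nor those of highest and lowest values were worked out over all features.

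Several probes were available for 13 of the 30 genes and let the same transcript be read more than once, although probes of a gene can bind different parts or isoforms. Over the 48 probes the differences ran from -0.31 to +0.15, and 47 were under 0.16 in size. Both Med7 probes, both Med4 probes and all 3 Cdk8 probes had differences above 0, and both Med12 probes (-0.08 and -0.07), both Med24 probes (-0.06 and -0.08) and both Med29 probes (-0.02 and -0.04) differences below 0. Signs disagreed for 3 genes. Of the 4 Med1 probes 2 were below 0 (-0.02 and -0.006) and 2 above (+0.03 and +0.04), the Med27 probes gave -0.03 and +0.05, and Med8 gave +0.08 and -0.0001. The probe farthest from 0 was 1 of 3 for Med28, a metazoan subunit of the tail. It read -4.41, -4.95, -4.76 and -4.83, with Aff3+/- replicate 1 above the others, and differed by -0.31, while the other Med28 probes gave -0.001 and -0.06. For Med14 the 3 probes gave +0.05, +0.003 and +0.13. Lack of overlap also appeared on probes not used as a gene's value. Both Aff3-/- arrays were brighter on a Cdk8 probe (1.88, 1.99, 1.81 and 1.94, a difference of +0.12) and on the Med14 probe at +0.13. They were dimmer on the second Med24 probe and on the Med28 probe at -0.31.

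**Figure D4:**
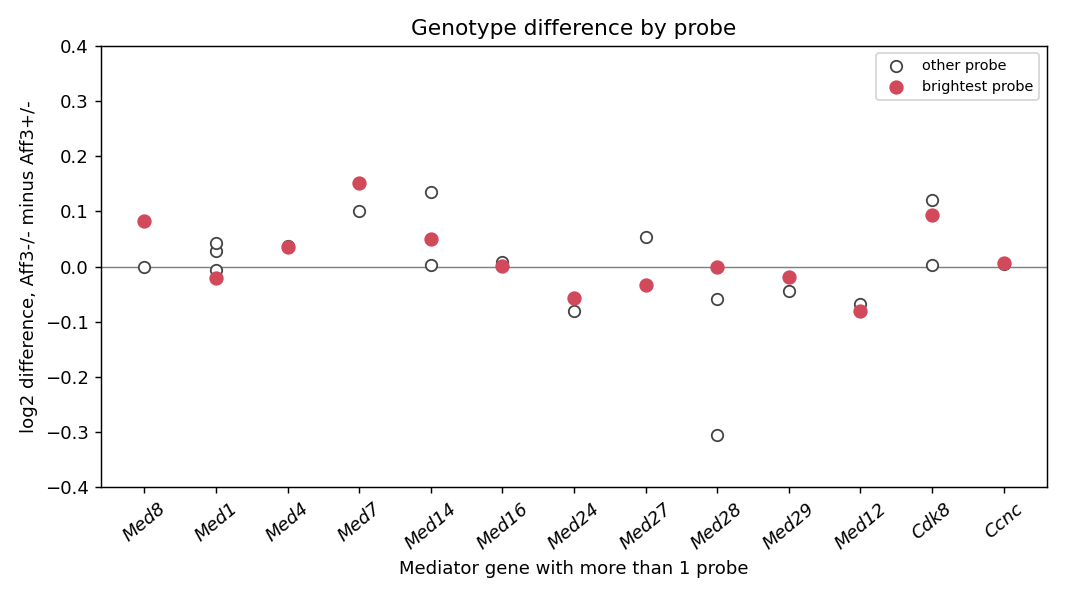
Log2 difference between Aff3-/- and Aff3+/- cells (y axis) for each probe of the 13 Mediator genes with several probes (x axis); the filled point is the brightest probe, used as the gene's value, and open points are the others. All but 1 probe lie within 0.16 of 0, and the exception is a Med28 probe at -0.31.

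Genes of the machinery that Mediator works with were read from lists chosen for their role, and 0 members of any list passed the adjusted threshold in limma or an unadjusted p under 0.05. Of the kinase module paralogues, Cdk19, the alternative kinase, read 1.66, 1.58, 1.34 and 1.23 (-0.10 ± 0.19), lower on the Aff3-/- array within each number. Neither genotype had the Med12l probe well above background on both of its arrays, so no difference is given. Of 13 listed RNA polymerase II genes, not all of them core subunits, 11 were measured, 6 above 0 and 5 below, with a median of +0.003. Polr2h, a subunit shared by the 3 nuclear polymerases, read 1.91, 2.12, 2.09 and 2.19 (+0.16 ± 0.13). It was the 1 gene of these 11 without overlap, brighter on both Aff3-/- arrays as 8.45% of all features were. Polr2b, the second largest subunit, was at -0.07 ± 0.12.

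Subunits of TFIID, the factor that recognises core promoters, had a median of +0.05, with 12 of 16 measured genes above 0. Above 0 were 45.7% of all features, the share to set beside each list's count. Taf7 read -1.69, -2.07, -1.91 and -1.92 (-0.19 ± 0.14), dimmer on both Aff3-/- arrays, as was Taf4, and Taf9b was at +0.14 ± 0.15. Of the 16, 2 were dimmer and 0 brighter without overlap, against 11.1% and 8.45% of all features. The other general initiation factors had 14 of 18 above 0 and a median of +0.02. Tcea1, the elongation factor TFIIS that rescues stalled polymerase, read 0.85, 1.24, 0.96 and 1.08, the largest difference in these lists at +0.25 ± 0.13 (unadjusted p = 0.11, limma), and Gtf2h2, a TFIIH subunit, was at +0.13 ± 0.11. Both Aff3-/- arrays were brighter for 4 of the 18, where 8.45% of all features were. Enhancer coactivators had 6 of 14 above 0 and a median of -0.03, with the acetyltransferase Ep300 (-0.11 ± 0.11) dimmer and Ncoa6 (+0.13 ± 0.11), a nuclear receptor coactivator, brighter on both Aff3-/- arrays. In all, 3 of the 14 were brighter without overlap and 1 was dimmer, against 8.45% and 11.1% of all features. By replicate number, number 2 was brighter without overlap for 8 of 11 polymerase genes, 10 of 16 TFIID subunits and 9 of 18 initiation factors. It was so for 2 of 14 coactivators and for 30.8% of all features.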

How the data were processed

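The members, gene lists and tests were chosen with earlier results of these data known. Each scanner file holds 1 array of 44397 spots read with Agilent Feature Extraction 10.7.1.1, per the submitters' processing notes and the file headers, and its processed and median signals are linear intensity values that the authors deposited without normalization between arrays. Flags in the deposited files, coded 0 or 1, mark outlying, saturated and well-above-background spots. The deposited table of log2 values matched the scanner values apart from a constant per array and centring of each probe on its median over arrays. Its column medians are 0.13 and -0.03 in Aff3+/- and -0.04 and 0.02 in Aff3-/- replicates 1 and 2. The constant of each array was not worked out. The genotype difference hardly moved in Med10 (+0.0083 on scanner values, +0.0077 on deposited values) and Med12 (-0.0810 and -0.0817). How the table's 25372 probes were chosen is not given in the sources used here.

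Control spots (1377) and outlier spots were left out, log2 processed signal minus each array's 75th percentile (1274 to 1351 intensity units) was averaged over a probe's spots, and a probe was kept where both arrays of either genotype had it well above background. Accessions named 26581 of 39429 probes through the RefSeq table of GRCm38.p6, used for names only, and 6854 of the 20637 tested features have no symbol. A gene took its probe of highest mean signal. The fit was limma 3.58.1 in R 4.3.3 (lmFit, eBayes, two-sided), 2 arrays against 2, tested on simulated data. The number of arrays limits the precision. Every Mediator gene may be named, and of each related list the kinase paralogues or the 2 genes of smallest p; Taf4 was added after its values were seen. Because the files hold no mean spot signal, normexp used the median signal. Some cell type markers are not reported here and stay out of the marker sums.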

Additional observations from a re-analysis of the deposited data

How the results depend on the processing

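No Mediator gene passed the adjusted threshold in limma under any setting run, nor did any feature; unadjusted p under 0.05 was reached by 233 to 1455 features, the most with the replicate block. The block cannot move a difference in this balanced design, only its error. With it the standard errors of the 30 genes ran from 0.073 to 0.11, against 0.11 to 0.22 without it. The smallest adjusted p of the Mediator genes was 0.81 with the block (limma). Same-numbered arrays deviated together (correlation across features 0.557). With 2 pairs and no label saying what a number marks, the numbers were not taken as pairs. Slide and scan could not be fitted as a block, because 1 slide and 1 scan hold all arrays. With the deposited values, 9 of 19 genes were above 0, 0 were brighter and 1 was dimmer without overlap. Over all the features of those values, these shares were not worked out. The measured genes absent there all had differences above 0 on the scanner values. Med8, read there by its other probe, was at -0.00079, and the other 18 genes kept their sign. The table lacks the brightest probe of many genes, holding 28 of the 48 probes. Normexp left 0 dimmer genes and turned Ccnc (-0.018), Med21 (-0.016), Med1 (+0.0050) and Med29 (+0.013); the mean of a gene's probes turned Med1 (+0.011) and Med27 (+0.0098). The cause was not tested for normexp. Leaving out 1 array assumed that the lone array varies like the other genotype, and shares over all features were not worked out. It gave 12 to 24 genes above 0, 6 to 16 brighter and 3 to 12 dimmer without overlap, a looser rule with 1 array. It changed the sign of 20 of 30 genes, over these ranges: Ccnc -0.028 to +0.041, Med1 -0.11 to +0.068, Med10 -0.0028 to +0.019, Med12 -0.26 to +0.098, Med13 -0.089 to +0.13, Med13l -0.23 to +0.26, Med14 -0.17 to +0.27, Med16 -0.0060 to +0.0068, Med17 -0.17 to +0.15, Med18 -0.062 to +0.12, Med20 -0.088 to +0.12, Med21 -0.015 to +0.058, Med22 -0.0015 to +0.20, Med23 -0.071 to +0.12, Med25 -0.044 to +0.22, Med27 -0.17 to +0.11, Med28 -0.075 to +0.072, Med29 -0.20 to +0.16, Med4 -0.089 to +0.16 and Med9 -0.020 to +0.055. Genes that kept their sign also moved: Med7 +0.086 to +0.22, Cdk8 +0.0059 to +0.18, Med8 +0.00055 to +0.17, Med11 +0.040 to +0.19, Med19 +0.043 to +0.10, Med26 +0.087 to +0.14, Med30 +0.023 to +0.072, Med15 -0.047 to -0.011, Med24 -0.11 to -0.0061 and Med31 -0.13 to -0.030. Outside the complex, Taf9b ran from +0.0093 to +0.28, Taf7 from -0.30 to -0.084, Polr2h from +0.067 to +0.25, Cdk19 from -0.27 to +0.077 and Polr2b from -0.15 to +0.011. The median of the 30 genes ran from -0.02 to +0.07.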
